A study of Homo sapiens with 8 samples.

Results

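The transcripts of 10 human genes were followed: the 5 NF-kB subunit genes NFKB1, NFKB2, REL, RELA and RELB, the inhibitor genes NFKBIA and NFKBIE, and the feedback and target genes TNFAIP3, BIRC3 and TRAF1. They were taken by name, whatever their values, and each symbol matched 1 Ensembl gene of the 63677 in the count tables. Total RNA was sequenced from 2 cell lines of T-cell acute lymphoblastic leukaemia, MOLT-4 and DND-41, after 24 h with ACBI-1 at 100 nM or with DMSO, the solvent, in 2 libraries per group and 8 in all. ACBI-1 is a degrader: it links the SMARCA2, SMARCA4 and PBRM1 proteins of SWI/SNF chromatin remodelling complexes to the VHL ubiquitin ligase and so leads to their loss as proteins, which RNA levels do not measure. The labels name no genetic change in any group, and 2 lines at a single dose and time are the limits of the model. The labels do not say whether the 2 libraries of a group came from separate cultures, so that p-values measure only the spread between libraries, which may be technical.

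NF-kB is a family of dimers of DNA-binding proteins. In resting cells IkB proteins such as the product of NFKBIA hold the dimers in the cytoplasm. Signals from receptors of the TNF family or from antigen receptors activate the IKK kinases, which mark the IkB proteins for destruction and so release RELA- or REL-containing dimers, while a second branch processes the NFKB2 product to make RELB-containing dimers. The dimers switch on their own brakes, among them NFKBIA, NFKBIE and the ubiquitin-editing enzyme TNFAIP3, as well as the survival and adaptor genes BIRC3 and TRAF1, so these transcripts are often used as readouts of the pathway. In T-cell acute lymphoblastic leukaemia NF-kB is known to be driven by NOTCH and T-cell receptor signals.

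The stretches upstream of the gene starts are shown because several of these genes carry the letters of the NF-kB consensus in front of a start listed for them. The promoter table held 8 of the 10 genes, all but RELB and NFKBIE, with RefSeq sequences on GRCh38.p14. The 10-base NF-kB consensus was searched on both strands in the 250 bases before each start. It was found for 6 of the 8 genes and not for RELA and TRAF1. By window, 7 of 14 (50.0%) held a match, beside 9.96% of all 35116 windows of that length, and matches on opposite strands or shifted by a base can overlap each other. The stretches are shown 5′ to 3′ on the strand of the gene, and capitals mark the matched letters. TNFAIP3 and BIRC3 are shown because they moved in opposite directions in MOLT-4, and NFKB2 and REL because they were the subunit genes that rose there. NFKBIA and NFKB1 are shown because both were called as lower in MOLT-4 than in DND-41 with DMSO.
TNFAIP3, chr6:137867188-137867217, plus strand: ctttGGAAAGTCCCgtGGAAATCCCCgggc
BIRC3, chr11:102317234-102317449, plus strand: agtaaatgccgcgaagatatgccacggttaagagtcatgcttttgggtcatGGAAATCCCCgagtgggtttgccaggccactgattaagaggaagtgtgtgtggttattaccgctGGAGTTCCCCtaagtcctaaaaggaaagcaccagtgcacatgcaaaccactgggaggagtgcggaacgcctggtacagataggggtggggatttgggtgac
NFKB2, chr10:102394462-102394491, plus strand: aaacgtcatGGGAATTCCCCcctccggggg
NFKB2, chr10:102394490-102394519, plus strand: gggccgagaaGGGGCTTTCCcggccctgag
NFKB2, chr10:102395519-102395548, plus strand: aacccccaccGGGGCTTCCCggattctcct
NFKB2, chr10:102395674-102395703, plus strand: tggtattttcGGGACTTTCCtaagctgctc
REL, chr2:60881518-60881547, plus strand: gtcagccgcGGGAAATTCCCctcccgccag
NFKBIA, chr14:35404811-35404840, minus strand: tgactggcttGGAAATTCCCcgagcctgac
NFKB1, chr4:102501300-102501329, plus strand: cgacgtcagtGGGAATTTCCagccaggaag

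TNFAIP3 and BIRC3 share the letters GGAAATCCCC, counted from the listed start at -55 to -46 in TNFAIP3 and at -199 to -190 in BIRC3. The 4 NFKB2 stretches belong to windows before 2 different starts of that gene. By the GENCODE 29 annotation, the stretches shown for TNFAIP3, REL and NFKB1 overlap an exon of the same gene. So do those of NFKB2 except chr10:102395519-102395548, so these may lie within transcribed sequence. The stretches of BIRC3 and NFKBIA do not overlap such an exon. These matches describe letters and not binding, which was not measured here.

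Library totals lay between 21308737 and 22067644 counts, and all 10 genes passed the filter on low counts in every comparison. T-lineage markers were abundant in all libraries as a sum, with the 9 genes of the list reaching 2643 to 3726 CPM, that is, counts scaled to a common library total. Not each marker was abundant: in DND-41 CD5 was at 3.35 to 7.65 CPM and CD2 at 5.34 to 7.09 CPM. In MOLT-4 the sum of the 9 genes was 3201 and 3229 CPM with DMSO and 2756 and 2643 CPM with ACBI-1, and its part in the results below was not tested. By the test used below, 2 of the 9 were called as higher with ACBI-1 and 6 as lower, where 58.4% of all 14618 genes tested passed. The B-lineage gene CD79A stood at 177 CPM or more in DND-41 and at most at 4.57 CPM in MOLT-4. Myeloid markers summed to at most 0.462 CPM, and MS4A1, PAX5, EPCAM and PECAM1 were at 0 or near it. In MOLT-4 the 2 libraries of each treatment were close to each other, with a chi-square per degree of freedom of 2.65 and 1.52 within groups and 49.4 to 50.8 across them. In DND-41 the libraries did not group by their labelled treatment: the value was 5.49 and 5.09 for libraries of the same number and 63.2 to 75.5 for all other pairs. The log2 fold changes of the authors' deposited table for DND-41 were within 0.001 of replicate 2 over replicate 1 for 100% of 27069 genes, and within that of ACBI-1 over DMSO as labelled for 0.151%. Nothing in the labels or headers tells which assignment is right, so DND-41 values are given as labelled and, separately, from the authors' deposited table, whose sign rests on that assignment. In MOLT-4 the authors' deposited table and the labels gave the same split for 100% of 27777 genes.

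In MOLT-4, the change of the 10 genes with ACBI-1 was uneven. The negative regulator TNFAIP3 fell 2.23-fold, whereas TRAF1 rose 3.34-fold, BIRC3 1.94-fold, NFKB2 1.37-fold and REL 1.32-fold. The 2 IkB genes and the subunits NFKB1, RELA and RELB did not pass the test. In counts, 4 of the 10 passed as higher and 1 as lower (edgeR quasi-likelihood F-test, Benjamini-Hochberg adjusted p under 0.05), where 58.4% of the 14618 genes tested passed in that comparison, 4120 higher and 4413 lower. The share of members called was thus near the background. A bulk level that is lower in fewer cells and one that is lower in every cell cannot be told apart in these data. With total counts in place of TMM scaling the median over all genes of the log2 fold change moved from 0.0087 to 0.13 and the split to 5804 higher and 3031 lower.

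**Figure D1:**
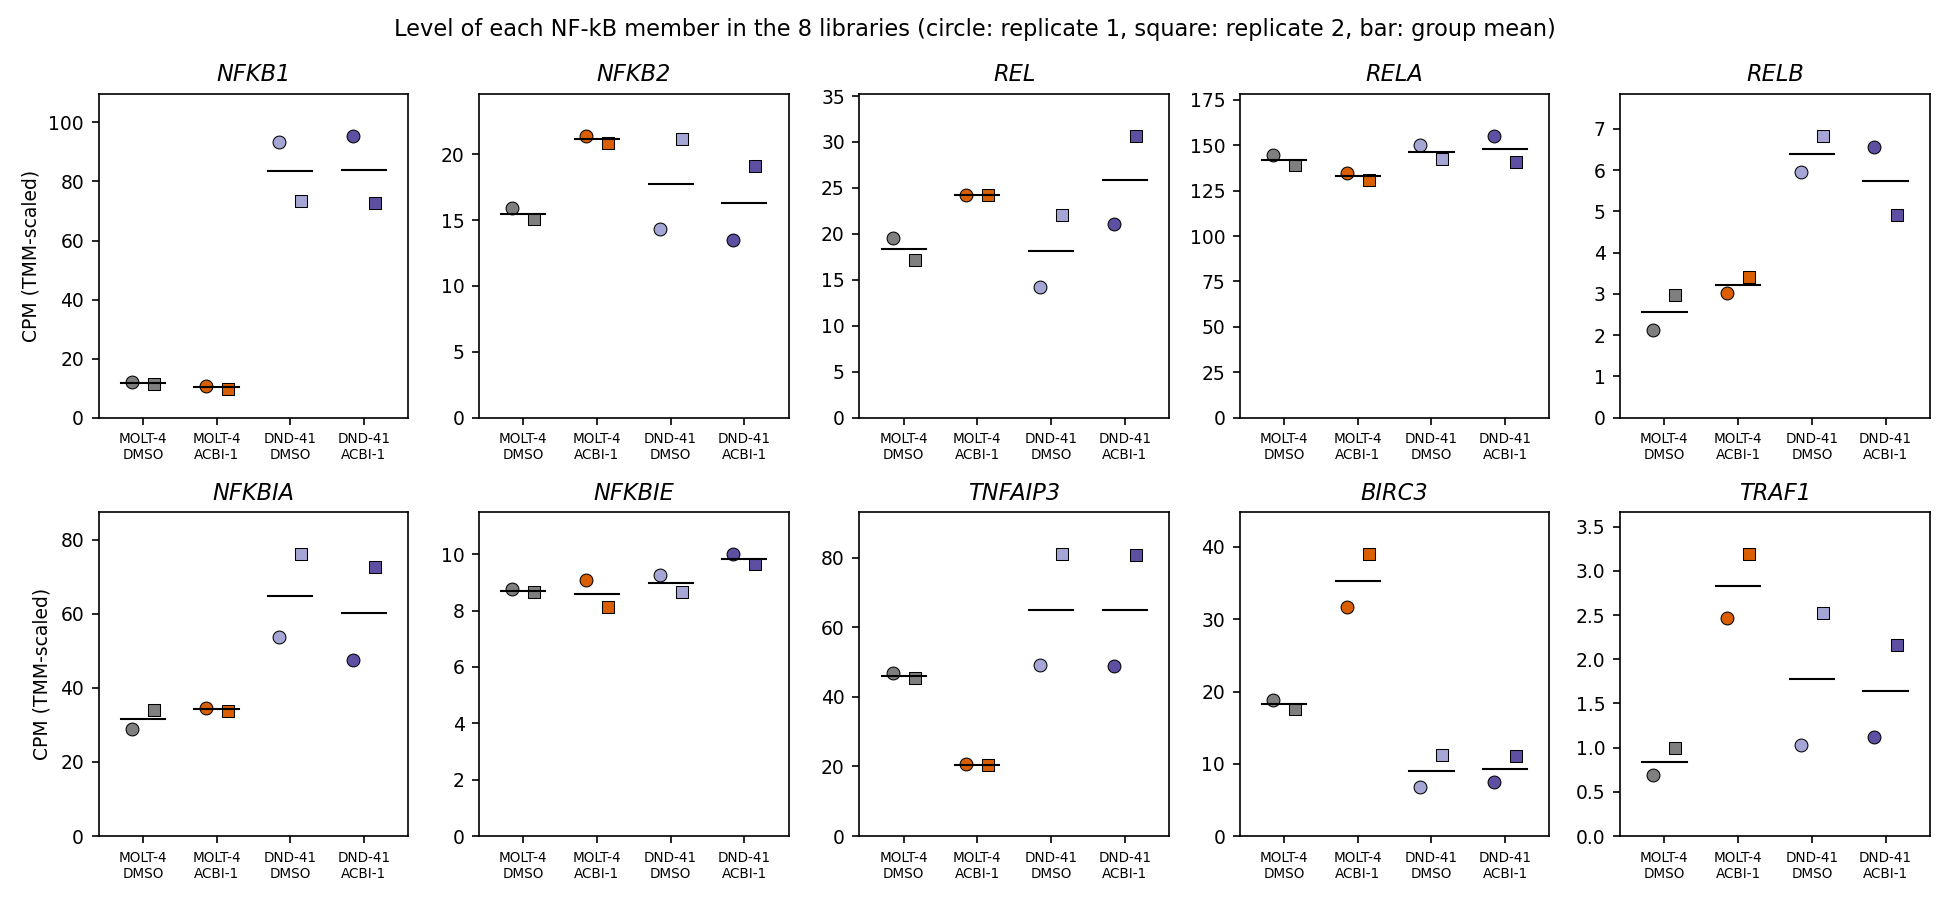
Level of each of the 10 genes in the 8 libraries, in TMM-scaled CPM on a linear axis from 0, with circles for replicate 1, squares for replicate 2 and a bar at each group mean. TNFAIP3 in MOLT-4 sits at 46.7 and 45.3 CPM with DMSO and at 20.8 and 20.3 CPM with ACBI-1, while in DND-41 squares and circles separate by replicate number in 8 of the 10 genes. The share of all genes that separate so was not counted.

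TNFAIP3, which encodes an enzyme that removes and adds ubiquitin chains on signalling proteins and so shuts the pathway down, stood at 46.7 and 45.3 CPM with DMSO and at 20.8 and 20.3 CPM with ACBI-1. The ACBI-1 libraries were both below the DMSO libraries, with means of 46.0 ± 1.01 and 20.6 ± 0.394 CPM (SD, n = 2 each). On the log2 scale this was -1.16 (SE 0.0659, edgeR adjusted p = 2.23e-19). The annotation places the antisense gene AL357060.1 (RP11-356I2.4 in the count tables) on the opposite strand, where 95 exon bases overlap. Its level fell from 19.3 and 18.5 CPM with DMSO to 5.07 and 5.64 CPM with ACBI-1, a change of -1.81 on the log2 scale (SE 0.108, edgeR adjusted p = 1.23e-18). Its MOLT-4 counts came to 36.2% of those of TNFAIP3. The strand setting of the counting was not given in the sources used here, so how far reads of the pair were kept apart was not tested.

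BIRC3 encodes a ubiquitin ligase of the inhibitor-of-apoptosis family that acts at TNF receptors and restrains the second NF-kB branch. Its levels in MOLT-4 were 18.9 and 17.6 CPM with DMSO and 31.7 and 39.0 CPM with ACBI-1, with no overlap between the groups. The means of 18.2 ± 0.915 and 35.3 ± 5.17 CPM (SD, n = 2 each) gave a log2 value for the change of 0.96 (SE 0.0808, edgeR adjusted p = 8.31e-14). Its close paralog BIRC2 also rose (log2 fold change 0.35), and how reads shared by such paralogs were counted was not given in the sources used here. COL1A1, a stromal gene, stood at 14.4 CPM in ACBI-1 replicate 2 and at 1.14 CPM or less in each of the other 7 libraries. Without that library BIRC3 had a log2 fold change of 0.80 and TRAF1 of 1.55, and the same numbers of members, 4 higher and 1 lower, were called.

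TRAF1 encodes an adaptor that joins TNF receptors to BIRC2 and BIRC3 proteins, and it was the least abundant of the 10 in MOLT-4. Its levels were 0.694 and 0.993 CPM with DMSO and 2.47 and 3.19 CPM with ACBI-1, from 14 and 20 counts and from 53 and 69 counts. All counts with ACBI-1 were above all those with DMSO, and the log2 fold change of 1.74 was the largest of the 10 with the widest error (SE 0.276, edgeR adjusted p = 6.44e-07).

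Within each library, a ratio of 2 members does not depend on the scaling between libraries. TNFAIP3 over BIRC3 was 2.48 and 2.58 in the MOLT-4 libraries with DMSO and 0.658 and 0.520 in those with ACBI-1. BIRC3 thus had fewer counts than TNFAIP3 with DMSO and more with ACBI-1. TNFAIP3 over NFKB2 went from 2.94 and 3.01 to 0.974 and 0.971, and TNFAIP3 over NFKBIA from 1.62 and 1.33 to 0.603 and 0.600. These ratios separated the groups, and they show unequal change of the genes in each pair.

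Among the subunit genes of MOLT-4, NFKB2 and REL rose and the other 3 did not pass the test. NFKB2, which encodes the precursor protein processed in the second branch, was at 15.9 and 15.0 CPM with DMSO and at 21.4 and 20.9 CPM with ACBI-1. Its log2 fold change was 0.45 (SE 0.0828, edgeR adjusted p = 8.95e-06), and its groups did not overlap. REL, which encodes the lymphoid subunit c-Rel, was at 19.6 and 17.2 CPM with DMSO and at 24.2 and 24.3 CPM with ACBI-1. Its groups did not overlap either, and its log2 fold change was 0.40 (SE 0.0792, edgeR adjusted p = 3.02e-05). An annotated non-coding gene on the same strand, AC010733.2, shares 5702 exon bases with REL and had 0 counts in the 8 libraries, and how reads of such an overlap were counted is not known here. Against a minimum change of 1.5-fold neither NFKB2 nor REL passed, while TNFAIP3, BIRC3 and TRAF1 did. RELB, the activating partner of the processed NFKB2 product, had 2.13 and 2.98 CPM with DMSO and 3.02 and 3.42 CPM with ACBI-1, with a log2 fold change of 0.34 (SE 0.207) that did not pass (edgeR adjusted p = 0.163).

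RELA encodes the main activating subunit of the classical branch. It had 144 and 139 CPM with DMSO and 135 and 131 CPM with ACBI-1, a log2 value of -0.091 (SE 0.0409, edgeR adjusted p = 0.0525). It crossed the threshold with RLE size factors (adjusted p = 0.0466), and its sign turned to 0.028 with total counts. NFKB1, which encodes the precursor of the DNA-binding partner of RELA, was at 12.0 and 11.3 CPM with DMSO and at 10.7 and 9.75 CPM with ACBI-1, with a log2 value of -0.18 (SE 0.105, edgeR adjusted p = 0.140). For both genes the 2 treated libraries were below the 2 controls, and neither difference passed.

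The inhibitor genes gave no call in MOLT-4, and their groups overlapped. NFKBIA, which encodes IkB-alpha and is a fast feedback target, had 28.9 and 34.1 CPM with DMSO and 34.6 and 33.8 CPM with ACBI-1, a log2 value of 0.12 (SE 0.0687, edgeR adjusted p = 0.130). It was called as higher with total counts (0.24, adjusted p = 0.00209) and without DMSO replicate 2 (0.24, adjusted p = 0.0217). NFKBIE, which encodes IkB-epsilon, had 8.77 and 8.64 CPM with DMSO and 9.07 and 8.13 CPM with ACBI-1, a log2 value of -0.015 (SE 0.117, edgeR adjusted p = 0.919).

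The 4 MOLT-4 libraries carry a small spread, and the calls rest on it. In a fit in which both lines shared the spread, none of the 10 genes passed in MOLT-4. There the edgeR adjusted p was 0.103 for TNFAIP3, 0.136 for BIRC3 and 0.143 for TRAF1, and 544 genes were called. That shared spread takes in the DND-41 libraries, which did not group by label. Their chi-square per degree of freedom within a labelled group was 68.3 with ACBI-1 and 64.6 with DMSO. The fit therefore cannot tell how firm the MOLT-4 calls are. In the authors' deposited MOLT-4 table, whose adjusted p was under 0.05 for 35.1% of 16234 genes, TNFAIP3 (-1.17), BIRC3 (0.95), TRAF1 (1.74), NFKB2 (0.44) and REL (0.39) passed and the other 5 did not.

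**Figure D2:**
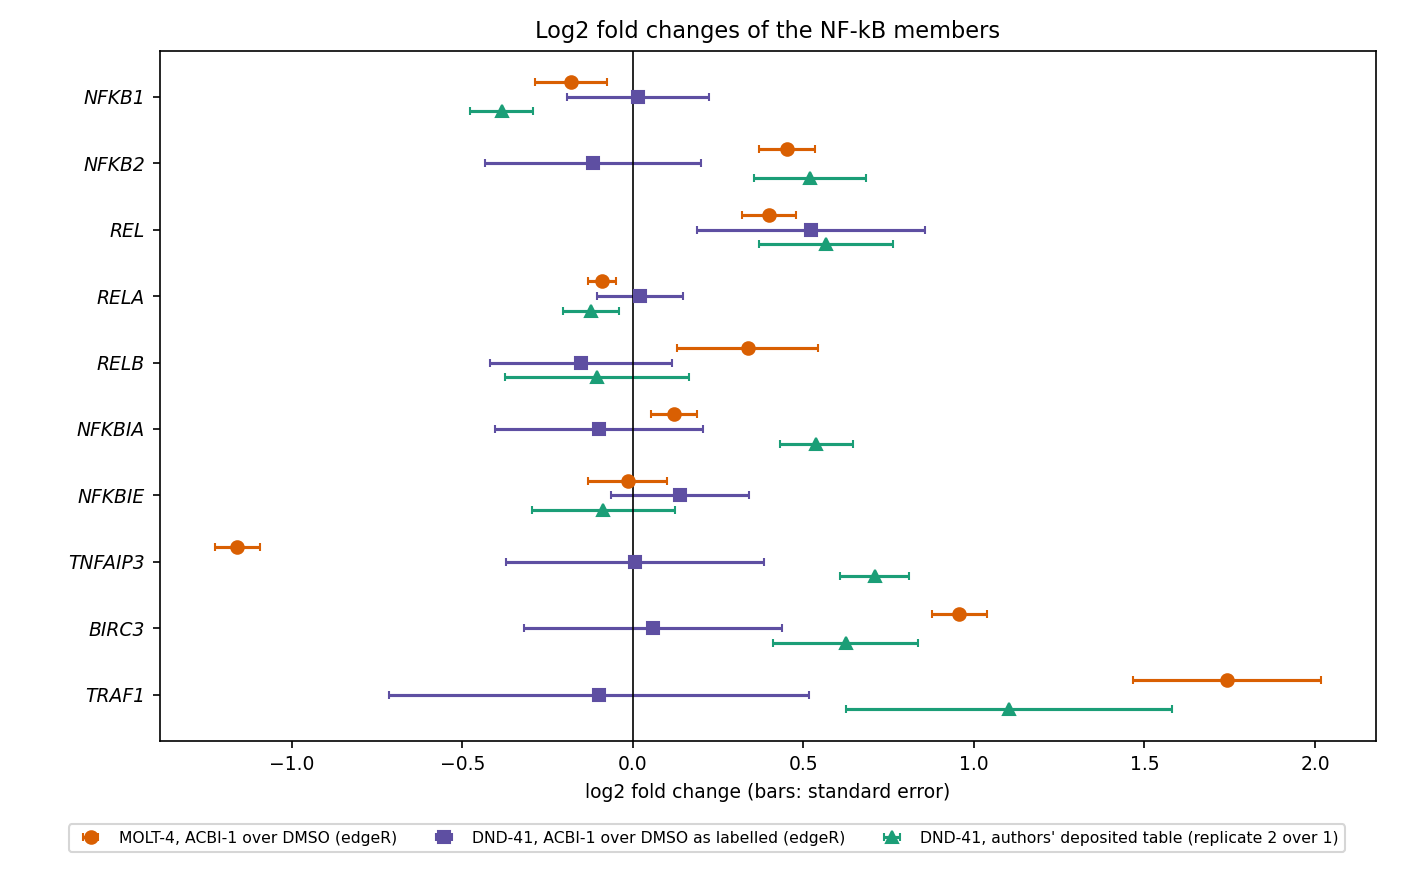
Log2 fold change of each gene (points) with its standard error (bars): circles for MOLT-4 and squares for DND-41, ACBI-1 over DMSO as labelled, from edgeR, and triangles for the authors' deposited DND-41 table, which equals replicate 2 over replicate 1. TNFAIP3 lies at -1.16 in MOLT-4, at 0.0068 in DND-41 as labelled and at 0.71 in the authors' deposited table.

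In DND-41 as labelled, and in a fit that did not pair libraries by number, no member differed detectably between treatments. None of the 14602 genes tested passed (0.0%; 37 had an unadjusted p under 0.05 in edgeR, and DESeq2 called 0). TNFAIP3 had 49.2 and 81.0 CPM with DMSO and 48.8 and 80.9 CPM with ACBI-1, and BIRC3 had 6.84 and 11.2 CPM with DMSO and 7.51 and 11.1 CPM with ACBI-1. In both genes the groups overlapped and the libraries of the same number lay together. NFKB1 had 93.3 and 73.5 CPM with DMSO and 95.5 and 72.6 CPM with ACBI-1. REL was the member with the largest labelled difference, 14.2 and 22.1 CPM with DMSO and 21.1 and 30.7 CPM with ACBI-1, a log2 fold change of 0.52 (SE 0.335). In both numbers the ACBI-1 library was the higher for REL, and the groups overlapped. With 1 library left out the REL value was 0.21 (without ACBI-1 replicate 2), 0.24 (without DMSO replicate 1), 0.78 (without ACBI-1 replicate 1) or 0.86 (without DMSO replicate 2). In a fit that paired the 4 libraries by number, REL was called (0.52, edgeR adjusted p = 8.02e-08), where 9.24% of the 14602 genes passed. Only NFKBIE had groups that did not overlap, at 9.27 and 8.67 CPM with DMSO and 10.0 and 9.66 CPM with ACBI-1, with a log2 fold change of 0.14 (SE 0.202).

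By replicate number, the DND-41 libraries did not overlap for 8 of the 10 genes, RELB and NFKBIE being the exceptions. The share of all genes that separated in this way was not counted, so this number says nothing particular about the members. In the authors' deposited DND-41 table, 36.8% of 14883 genes had an adjusted p under 0.05, and 6 members did: TNFAIP3, NFKBIA, NFKB1, NFKB2, BIRC3 and REL. The log2 fold changes in the authors' deposited table were 0.71 for TNFAIP3 (SE 0.0997, adjusted p = 1.98e-11) and 0.54 for NFKBIA (SE 0.108, adjusted p = 4.71e-06). For NFKB2, REL and BIRC3 the authors' deposited table had 0.52, 0.57 and 0.62, with adjusted p-values of 0.00608, 0.0133 and 0.0112. NFKB1 was the member with a negative and significant value in the authors' deposited table, -0.38 (SE 0.0928, adjusted p = 1.90e-04). TRAF1 stood at 1.10 in the authors' deposited table with an adjusted p of 0.0561. Read with the sign of that table, NFKB2, REL and BIRC3 had positive significant values in both lines and TNFAIP3 significant values of opposite sign; read with the sign turned, NFKB2, REL and BIRC3 had opposite signs in the lines and TNFAIP3 was negative in both. The difference between the 2 deposited tables was not tested.

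As labelled, and in a fit that did not pair libraries by number, the change with ACBI-1 was not shown to differ between the lines for any of the 10 genes. The interaction of line and treatment, in an edgeR fit of all 8 libraries, called 63 of 16047 genes (0.393%) and 0 members. The unadjusted p of the edgeR fit was 0.0305 for TNFAIP3 and 0.0409 for TRAF1, where 1611 of the 16047 genes had one under 0.05. The difference of log2 fold changes, MOLT-4 minus DND-41, was -1.16 for TNFAIP3 (SE 0.420, edgeR adjusted p = 0.433). It was 0.91 for BIRC3 (SE 0.401, edgeR adjusted p = 0.523) and 1.85 for TRAF1 (SE 0.727, edgeR adjusted p = 0.472). These errors carry the spread between the DND-41 libraries. Without DND-41 DMSO replicate 2 the differences were 0.50 for BIRC3 and 1.06 for TRAF1, and without DND-41 ACBI-1 replicate 2 that of TNFAIP3 was -0.75. Pairing the libraries by number changed the calls of 5 members, whose values stand with the replicate block among the effects of processing.

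In DMSO as labelled, 4 of the 10 members differed between the lines, a share at the background of all genes. The DND-41 libraries labelled DMSO differed from each other, with a chi-square per degree of freedom of 64.6. If the split of the authors' deposited table is the one by treatment, that group mixes both treatments, which bears on all values here and in the next paragraph. MOLT-4 had far less NFKB1 transcript and less RELB and NFKBIA than DND-41, more BIRC3, and RELA at a level that was not shown to differ. In the fit of 8 libraries 1 member was higher and 3 were lower in MOLT-4, where 39.5% of 16047 genes passed, 3227 higher and 3108 lower. With total counts the median log2 difference over all genes moved from -0.015 to -0.19, with 2552 genes higher and 4007 lower. NFKB1 ranged from 9.75 to 12.0 CPM over the 4 MOLT-4 libraries and from 72.6 to 95.5 CPM over the 4 DND-41 libraries. Its log2 difference in DMSO was -2.84 (SE 0.186, edgeR adjusted p = 1.05e-04), and it was called under all 14 alternatives. RELB, at 2.13 and 2.98 CPM in MOLT-4 and 5.95 and 6.83 CPM in DND-41 with DMSO, had a log2 difference in DMSO of -1.32 (SE 0.252, edgeR adjusted p = 0.00748), and it was lost without MOLT-4 DMSO replicate 1 (-1.10).

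NFKBIA with DMSO was at 28.9 and 34.1 CPM in MOLT-4 and at 53.7 and 76.1 CPM in DND-41, a log2 difference of -1.04 (SE 0.245, edgeR adjusted p = 0.0165). The call was lost in 3 of 14 alternatives: without DND-41 DMSO replicate 2 (-0.77), without MOLT-4 DMSO replicate 1 (-0.93) and without MOLT-4 DMSO replicate 2 (-1.16). BIRC3 was higher in MOLT-4, with a log2 difference of 1.01 (SE 0.286, edgeR adjusted p = 0.0314). That call was lost in 6 of 14 alternatives, with total counts (0.83) and when any of 5 libraries was left out: DND-41 DMSO replicate 1 (0.71), MOLT-4 ACBI-1 replicate 1 (1.02) or 2 (1.02), or MOLT-4 DMSO replicate 1 (0.96) or 2 (1.07). For these 4 genes and TNFAIP3 the libraries of both treatments of a line did not overlap with those of the other line. The share of all genes for which this holds was not counted. TNFAIP3 had a log2 difference of -0.50 in DMSO (SE 0.295, edgeR adjusted p = 0.218) and of -1.08 (adjusted p = 0.00556) over the mean of both treatments, a contrast added after the data were seen, and its DMSO value was -0.81 without DND-41 DMSO replicate 1 and -0.096 without replicate 2 of that group. RELA (-0.045), NFKB2 (-0.20), REL (0.018), NFKBIE (-0.043) and TRAF1 (-1.08) did not pass. TRAF1 passed without DND-41 DMSO replicate 1 (-1.57, edgeR adjusted p = 0.0412) and stood at -0.29 without replicate 2 of that group, and RELA passed with total counts (-0.22, edgeR adjusted p = 0.0436).

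Levels of different genes can be set side by side only per length. In MOLT-4 with DMSO the order by CPM per kilobase of annotated exon was RELA at 26.0 ± 0.667, NFKBIA at 13.3 ± 1.56, TNFAIP3 at 9.11 ± 0.199, NFKB2 at 3.45 ± 0.135, NFKBIE at 3.37 ± 0.0348, BIRC3 at 2.42 ± 0.122, NFKB1 at 1.86 ± 0.0808, REL at 1.40 ± 0.128, RELB at 0.842 ± 0.198 and TRAF1 at 0.131 ± 0.0329 (SD, n = 2 each). The neighbours NFKB2 and NFKBIE lay within their spread of each other. With ACBI-1, TNFAIP3 came to 4.07 ± 0.078, BIRC3 to 4.70 ± 0.688 and NFKB2 to 4.71 ± 0.0812 CPM per kilobase (SD, n = 2 each), and BIRC3 lay within its spread of both others. In DND-41 with DMSO NFKBIA (27.3 ± 6.67) and RELA (26.8 ± 0.955) could not be ordered, followed by NFKB1 (13.3 ± 2.24) and TNFAIP3 (12.9 ± 4.45), which could not be ordered either. Exon lengths are unions over all transcripts of GENCODE 29 and reach 13170 bases for REL, which lowers its value where shorter transcripts are the ones made.

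By these levels RELA made up most of the subunit transcripts in both lines. In MOLT-4 with DMSO its share of the 5 subunits was 77.5% ± 0.112, followed by NFKB2 with 10.3% ± 0.152, NFKB1 with 5.55% ± 0.107, REL with 4.16% ± 0.281 and RELB with 2.52% ± 0.652 (SD, n = 2 each). With ACBI-1 the RELA share was 72.4% ± 0.209 and that of NFKB2 14.0% ± 0.0138, and the REL share was 5.48% ± 0.110. NFKB1 held 4.87% ± 0.247 with ACBI-1 and RELB 3.16% ± 0.332 (SD, n = 2 each). The libraries of the 2 treatments overlapped in the RELB share and did not overlap in the other shares. In DND-41 with DMSO RELA held 56.3% ± 0.252 and NFKB1 28.0% ± 3.83. Expressed as counts, RELA over NFKB1 was 12.0 and 12.4 in the MOLT-4 libraries with DMSO and 1.61 and 1.94 in those of DND-41.

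**Figure D3:**
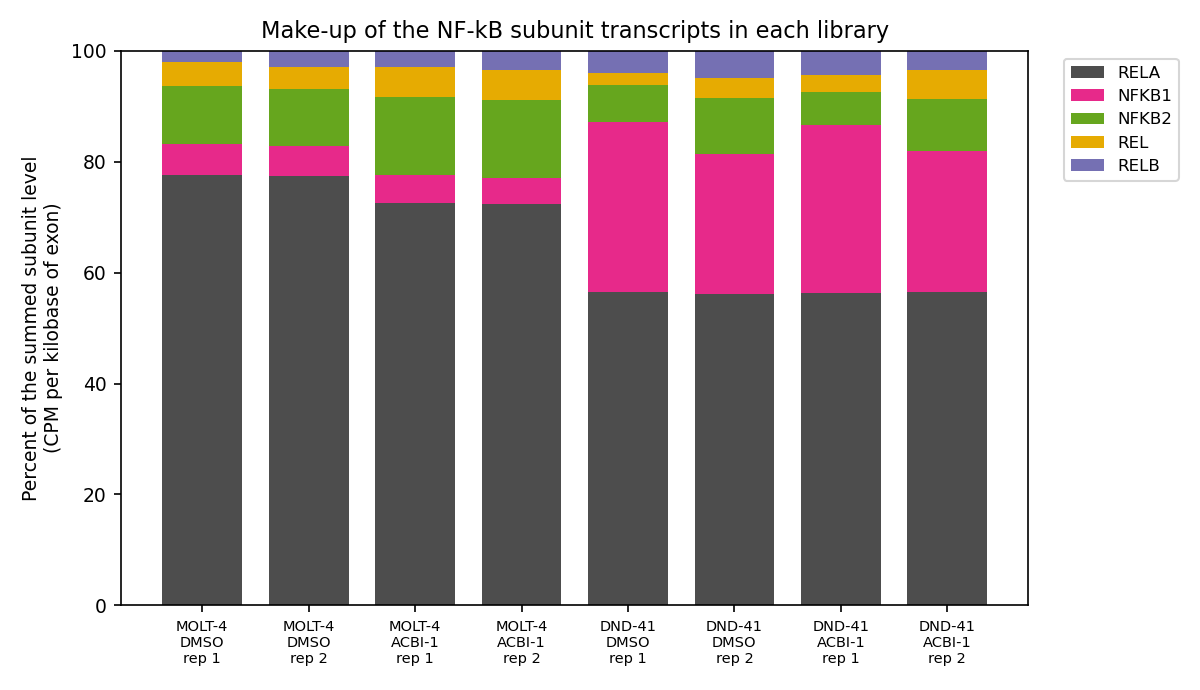
Share of each of the 5 subunit genes in their summed level (CPM per kilobase of exon) in each of the 8 libraries, as stacked bars from 0 to 100 percent. RELA holds 77.6% and 77.4% in the MOLT-4 libraries with DMSO and 72.6% and 72.3% in those with ACBI-1, and NFKB1 holds 25.3% to 30.7% in DND-41.

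The rest of the pathway in MOLT-4 was described with 6 lists of 112 genes in all, of which 76 passed the filter on low counts. Of these, 22 rose, 32 fell and 22 did not pass, where 58.4% of all 14618 genes tested passed, 4120 higher and 4413 lower. Their median was -0.12 on the log2 scale beside 0.0087 for all genes. The counts of single lists are to be read against that share, and no list was tested as a set. The 36 others were too low to test. Among ligands and receptors 0 of 7 tested rose and 4 fell (58.4% of all genes called), with a median of -0.62. LTB, which encodes lymphotoxin beta, a ligand of the second branch, fell from 16.8 and 14.7 CPM to 0.651 and 0.370 CPM, a change on the log2 scale of -4.93 (SE 0.196, edgeR adjusted p = 7.24e-25). TNFRSF1A, the main TNF receptor, fell by 0.62 on the log2 scale, from 61.1 and 64.1 CPM to 40.6 CPM in both ACBI-1 libraries.

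Of the 24 signal transducers tested, 7 rose and 6 fell, beside the same 58.4% called among all genes, with a median of -0.034. TRAF3IP2, the adaptor of the interleukin 17 receptor, changed by -2.31, and the Toll-like receptor adaptor MYD88 and kinase IRAK1 by -0.45 and -0.39, each past the threshold. MAP3K14, the kinase that starts the processing of the NFKB2 product, had a log2 fold change of -0.12 and did not pass (edgeR adjusted p = 0.328).

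Of the 5 IKK genes 2 rose and 2 fell, where 58.4% of all genes passed. IKBKB (0.17) and TBK1 (0.45) rose, CHUK (-0.20) and IKBKE (-0.79) fell, and IKBKG had -0.19 (edgeR adjusted p = 0.199). IKBKG has a near-identical copy in the genome, so its value is uncertain. Both tested genes among the other IkB family, NFKBIB (-0.25) and NFKBID (-0.28), fell.

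Of the 16 other brakes tested 5 rose and 9 fell, beside 58.4% of all genes called in either direction, with a median of -0.21. PDLIM2, a ubiquitin ligase for RELA, fell from 26.8 and 28.1 CPM to 5.54 and 5.08 CPM (log2 fold change -2.37). TNIP1 (-0.31) and TNIP2 (-0.40), binding partners of the TNFAIP3 product, and CYLD (-0.25), another deubiquitinase, fell. The related gene TNIP3 rose by 2.05 at a low level, from 0.495 and 0.695 CPM to 2.60 and 2.36 CPM. TNFAIP8, listed with the brakes but known mainly as a TNF-induced regulator of cell death, rose by 0.53. Of the 22 other targets tested, 8 rose and 9 fell, again beside 58.4% of all genes called, with a median of -0.055. CD44 (-2.37), STAT5A (-1.19) and VIM (-0.86) fell and BTG2 (2.11) rose. CFLAR, a survival gene, rose by 0.98 and was named after its value was seen. In the same list FAS (-1.45), GADD45B (-1.05) and BCL2L1 (-0.17) fell. With the spread shared by both lines, which takes in that between DND-41 libraries of the same label, only LTB and CD44 kept their call among the genes named by the rule for these lists. TBK1, IKBKB, NFKBID and CYLD also did not pass with DESeq2. With total counts CHUK, NFKBIB, NFKBID and CYLD did not pass, and with no low-count filter TBK1, IKBKB, NFKBIB, NFKBID and CYLD did not. Against a minimum change of 1.5-fold, MYD88, IRAK1, CHUK, TBK1, IKBKB, NFKBIB, NFKBID, TNFAIP8, TNIP1, TNIP2 and CYLD cannot pass, since their changes were smaller. The change of TNFRSF1A (-0.62, SE 0.0552) lay within its error of that minimum. Leaving out ACBI-1 replicate 2 ended the calls of TBK1 (0.34), NFKBIB (-0.15) and NFKBID (-0.23). Leaving out ACBI-1 replicate 1 ended those of NFKBID (-0.32) and CYLD (-0.19), leaving out DMSO replicate 1 that of CYLD (-0.17), and leaving out DMSO replicate 2 that of NFKBID (-0.21).

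**Figure D4:**
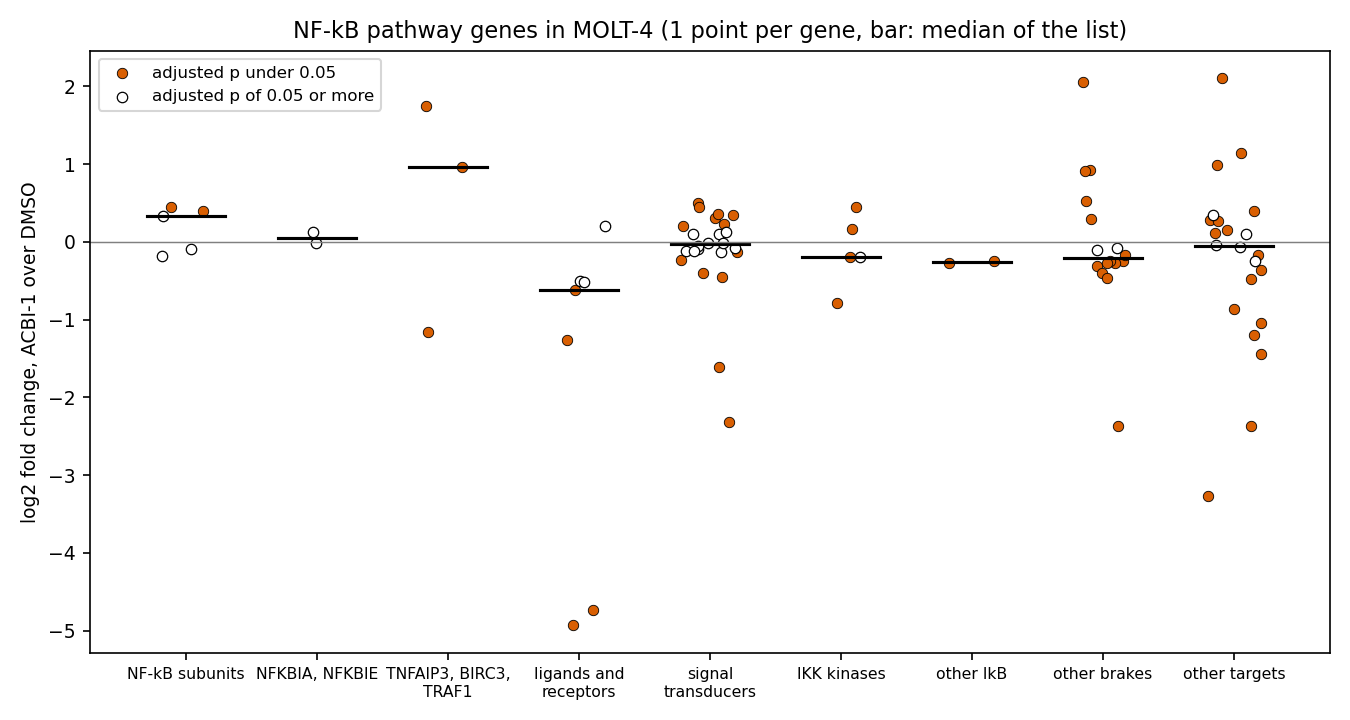
Log2 fold change with ACBI-1 in MOLT-4 of each tested gene of the NF-kB lists (1 point per gene, filled where the edgeR adjusted p is under 0.05), with a bar at each list's median. The points of the brakes and targets spread to both sides of 0, the ligands and receptors have a median of -0.62, and the lists hold LTB at -4.93 and BTG2 at 2.11.

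Over the 8 libraries the genes whose log2 level ran most like that of TNFAIP3 were EPHB6, CSTF2T and AKNA (Pearson r 0.992, 0.992 and 0.991). EPHB6 stood at 196 and 187 CPM in MOLT-4 with DMSO, at 87.8 and 86.4 CPM with ACBI-1, and at 236 to 415 CPM in DND-41. The genes most like TRAF1 were RAB33B, FAM171A2 and PPP2R5C (r 0.986, 0.982 and 0.982). These are the nearest of all genes over 8 libraries that fall into few groups, and they are given as a description.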

How the data were processed

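The submitters' processing notes name STAR 2.5.2a, the build hg19, featureCounts and DESeq2 1.12.4. Libraries were strand-specific and paired-end per the labels; the sources used here give no annotation, strand setting or treatment of multimapping reads. The authors deposited whole-number counts per Ensembl gene for each line, not normalized, and DESeq2 tables with log2 fold changes, their standard errors and p-values. The suffix "redo" of the MOLT-4 count columns is not explained there.

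For each line the 4 libraries were fitted with edgeR 4.0.16 under R 4.3.3 (TMM, filterByExpr, quasi-likelihood F-test, 2-sided, Benjamini-Hochberg adjusted over all genes tested, threshold 0.05). The interaction and the difference between lines in DMSO came from 1 fit of 8 libraries. Standard errors are the log2 fold change over the square root of F. CPM use TMM over all 8 libraries, and the likeness between genes used log2 of CPM plus 0.5. Scaling, filter, test (DESeq2 1.42.0, and edgeR against 1.5-fold), shared spread, replicate block and left-out libraries were varied. Exon lengths, gene types and overlaps came from GENCODE 29 on GRCh38. Where a symbol had several Ensembl identifiers, the one with most counts was used. The deposited fold changes were compared with all splits of 4 libraries into pairs. The scripts were tested on simulated data. The named genes were the 10 members, whatever their values, and per pathway list up to 4 genes with the smallest adjusted p plus MAP3K14, IKBKG and CYLD; BIRC2, TNIP3 and CFLAR were named after their values were seen. One gene that this rule names is not reported here. The members and lists were chosen with earlier results of these data known.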

Additional observations from a re-analysis of the deposited data

How the results depend on the processing

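In MOLT-4 8533 genes were called, 1737 against a 1.5-fold change and 544 with the spread shared by both lines, and members called higher were then 2 and 0. Members called lower were 2 with RLE size factors and with the replicate block, RELA being added, and 0 with the shared spread. The sign turned with total counts for RELA (0.028) and NFKBIE (0.10). TNFAIP3, BIRC3, TRAF1, NFKB2 and REL kept their direction in all 12 alternatives. In DND-41 as labelled the replicate block called 1349 genes and 1 member, REL (0.52, edgeR adjusted p = 8.02e-08). Deviations of same-numbered libraries correlated at 0.880 in DND-41 and 0.00433 in MOLT-4, from 2 pairs in each line, and no label gives the numbers a meaning. TNFAIP3 in DND-41, at 0.0068, had -0.012 with DESeq2, -0.014 without a filter on low counts, -0.0033 with RLE size factors and -0.0044 with the shared spread. The interaction called 63 genes, 367 with DESeq2 and 5860 with the replicate block. That block called TNFAIP3 (-1.16, edgeR adjusted p = 4.70e-23) as lower and BIRC3 (0.90, 8.63e-09), NFKB2 (0.58, 2.61e-05), TRAF1 (1.85, 3.11e-05) and NFKBIA (0.23, 0.0310) as higher, 4 members higher and 1 lower. In DND-41 these numbers are also the split of the authors' deposited table, so the block removes that difference. The lines in DMSO differed in 6335 genes, and 0 members were higher with total counts. With the replicate block TRAF1 passed there as well (-1.02, edgeR adjusted p = 0.0453). There the sign turned for NFKB2 (0.089) and REL (-0.039) over the mean of both treatments, an alternative chosen after seeing the data, and for REL with total counts (-0.17).

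Leaving out 1 library at a time gave log2 values that crossed 0. In MOLT-4 these were NFKBIE (-0.096 to 0.064) and MAP3K14 (-0.27 to 0.039), while RELA stayed negative (-0.12 to -0.067). In DND-41 they were NFKB1 (-0.18 to 0.20), NFKB2 (-0.41 to 0.18), RELA (-0.038 to 0.076), RELB (-0.36 to 0.031), NFKBIA (-0.45 to 0.18), TNFAIP3 (-0.42 to 0.39), BIRC3 (-0.27 to 0.44) and TRAF1 (-0.67 to 0.67). In the interaction they were NFKB1 (-0.39 to 0.020), REL (-0.47 to 0.18) and NFKBIA (-0.046 to 0.56), and between the lines NFKB2 (-0.45 to 0.11), REL (-0.26 to 0.37) and NFKBIE (-0.091 to 0.013). The interaction then called 0 to 49 genes, fewest without either MOLT-4 ACBI-1 library, and the lines differed in 3292 to 7424 genes, fewest without MOLT-4 DMSO replicate 1, with 0 to 1 members higher and 1 to 4 lower. The cause of these changes was not tested. A group left with 1 library is assumed to vary like the others. TRAF1 and RELB, at a few CPM, are limited by counting.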
